A study of Mus musculus with 12 samples.

Results

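The comparison described here is how the response of the mouse liver to dextran sodium sulfate (DSS) differed between 2 genotypes, wild-type and RelaΔhepStat3Δhep. For every gene the response of RelaΔhepStat3Δhep mice (DSS minus untreated) was set against the response of wild-type mice (DSS minus untreated), and the quantity reported is the first minus the second, on a log2 scale. The members are the autosomal gene rows of the deposited table, 26547 of 51609 rows, of which 13853 had enough reads to be tested. There were 4 groups of 3 libraries each, 12 in all, with and without DSS in either genotype. All mice were C57BL/6 and 5 to 7 weeks old, and the treated mice drank 2% DSS for 6 days while the others drank plain water. In RelaΔhepStat3Δhep mice a Cre recombinase under the albumin promoter deletes Rela and Stat3 in hepatocytes, so the other liver cells keep both genes, and the mice called wild-type are their Cre-negative littermates. The samples are whole liver, in which fewer cells of a type and less RNA per cell cannot be told apart.

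DSS injures the lining of the colon, and microbial products that cross it reach the liver through the portal vein. Rela, the transactivating subunit of NF-κB, and Stat3, which is switched on by interleukin-6 family cytokines, are the transcription factors through which hepatocytes answer such signals, above all with the acute phase proteins of blood plasma. A difference between the 2 responses can arise in any of the 4 groups, so beside each difference the values of all libraries and the group that stands apart are given.

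The summed counts per library ran from 65879529 to 82850098, and normalised read counts are given as CPM, the count scaled to the effective (TMM) size of each library. The sex-linked transcripts did not match across groups. In the 3 DSS-treated RelaΔhepStat3Δhep libraries Xist, which is transcribed from the inactive X chromosome of female cells, lay between 903 and 1283 CPM, and the summed Ddx3y, Uty, Kdm5d and Eif2s3y of the Y chromosome were at most 0.12 CPM. In 8 of the other libraries Xist was at most 29 CPM and the summed Y genes lay between 175 and 241 CPM. These 8 were not alike in Xist. It was 29 CPM in the third untreated RelaΔhepStat3Δhep library and 11.1 and 11.9 CPM in DSS-treated wild-type libraries 1 and 3. In the rest of them it was at most 0.57 CPM. The third untreated wild-type library held both, with 1143 CPM of Xist and 30.1 CPM of the Y genes, and whether it holds RNA of more than 1 mouse was not tested. Sex and the DSS-treated RelaΔhepStat3Δhep group therefore cannot be told apart, and the calls that were lost without the third untreated wild-type library are named with the count of genes.

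Rela itself was read at 45.5, 54.5 and 41.2 CPM in untreated and 41.1, 39.8 and 55.5 CPM in DSS-treated wild-type livers, and at 42.8, 43.8 and 51.4 CPM and 39.5, 62.3 and 46.4 CPM in the corresponding RelaΔhepStat3Δhep livers. The 4 groups overlapped, so the whole-gene count of Rela did not separate the genotypes. Stat3 was read at 45.7, 138 and 87.6 CPM and, after DSS, at 63.2, 329.5 and 307 CPM in wild-type livers, against 45.9, 46.7 and 49.7 CPM and 43, 58 and 74.8 CPM in RelaΔhepStat3Δhep livers. DSS-treated wild-type mice 2 and 3 had the highest values. The difference between the responses was 0.15 (SE 0.26, adjusted p = 0.817) for Rela and -1.06 (SE 0.77, adjusted p = 0.518) for Stat3. A table of whole-gene counts cannot show a deleted exon, so neither gene checks the labels here.

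The 2 responses differed for 59 of the 13853 autosomal genes tested, 0.426% of them, at an adjusted p under 0.05 (edgeR quasi-likelihood test). In 36 of these genes, 0.26% of those tested, the difference was above 0, that is, RelaΔhepStat3Δhep mice moved upward relative to wild-type mice, and in 23 genes, 0.166%, it was below 0. The absolute log2 difference of the 59 genes had a median of 2.23 and a minimum of 0.90. At an unadjusted p under 0.05 the counts were 2295 genes (16.6%), with 1353 (9.77%) above and 942 (6.8%) below 0. Over all genes tested the median difference was 0.02 and 51.4% of the values lay above 0. Cbx7 (adjusted p = 0.0488) was the last gene inside the threshold and Neurl3 (adjusted p = 0.05004) the first outside it. The count rested on single libraries: it was 192 without the first DSS-treated wild-type library and 16 without the second untreated RelaΔhepStat3Δhep library, 22 without the third untreated wild-type library, and between 18 and 76 for the others left out; the sign of the difference was the same in all 59 genes each time. DESeq2 called 604.

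Without the third untreated wild-type library, 20 of the 59 genes were still past the threshold. Among the genes named with values they were Slc22a26, 2010002M12Rik, Dntt, Pygo1, Chrm3, Amn1, Ak4, Sparc, Gm12346, Gm5844, Hsp90aa1, Enpp3, Car2, Cdk1, Aldoc, Nt5e, Slc16a5, Serpinh1 and Plcb1. The 23 others, Hao2, Ccnb1, Cdc20, Cenpf, Kif20b, Racgap1, Ckap2l, Cyp2g1, Nat8, Nox4, Grm8, Susd4, Trhde, Adam11, Errfi1, Tnfrsf1b, Cbx7, Acaa1a, Cacybp, Col5a2, Klf6, S100a10 and Slc25a37, had adjusted p from 0.0523 to 0.117 without it and kept their direction. With high Xist (over 100 CPM) as a covariate, which in this design is estimated from the third untreated wild-type library alone, no gene passed the edgeR test (933 at an unadjusted p under 0.05), and the standard error of the 59 genes was 1.72 times larger in the median. The covariate reflects how far the third untreated wild-type library lay from the other untreated wild-type ones. It therefore cannot sort the genes by the part of sex. All 59 kept their direction. The size of the difference was similar in some genes and not in others. It was 1.39 against 1.40 for Sparc, 4.56 against 4.55 for Dntt, -1.82 against -1.86 for Ak4, 1.70 against 1.64 for Hsp90aa1 and -2.26 against -2.23 for Enpp3. It was 1.17 against 3.12 for Nt5e, 2.14 against 4.96 for Ccnb1, 1.88 against 4.53 for Cenpf and 1.35 against 3.00 for Kif20b. For Klf6 it was 0.56 against 1.08 and for Slc25a37 -0.56 against -1.10.

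The responses behind these 59 genes fell into few patterns. By the response within each genotype, 43 passed the threshold in RelaΔhepStat3Δhep mice alone (1110 of 13853 genes, 8.01%, passed there in all), 8 in wild-type mice alone (112 of 13853, 0.808%), 4 in both with opposite signs, none in both with the same sign and 4 in neither. A gene past the threshold in 1 genotype alone is not shown by that to be silent in the other. At an unadjusted p under 0.05 in both genotypes, 40 of the 59 moved in opposite directions, against 209 of the 13853 tested (1.51%); the difference itself picks such genes, so this share is a description. Of the 68 genes that passed the threshold in both genotypes, 64 responded in the same direction.

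**Figure D1:**
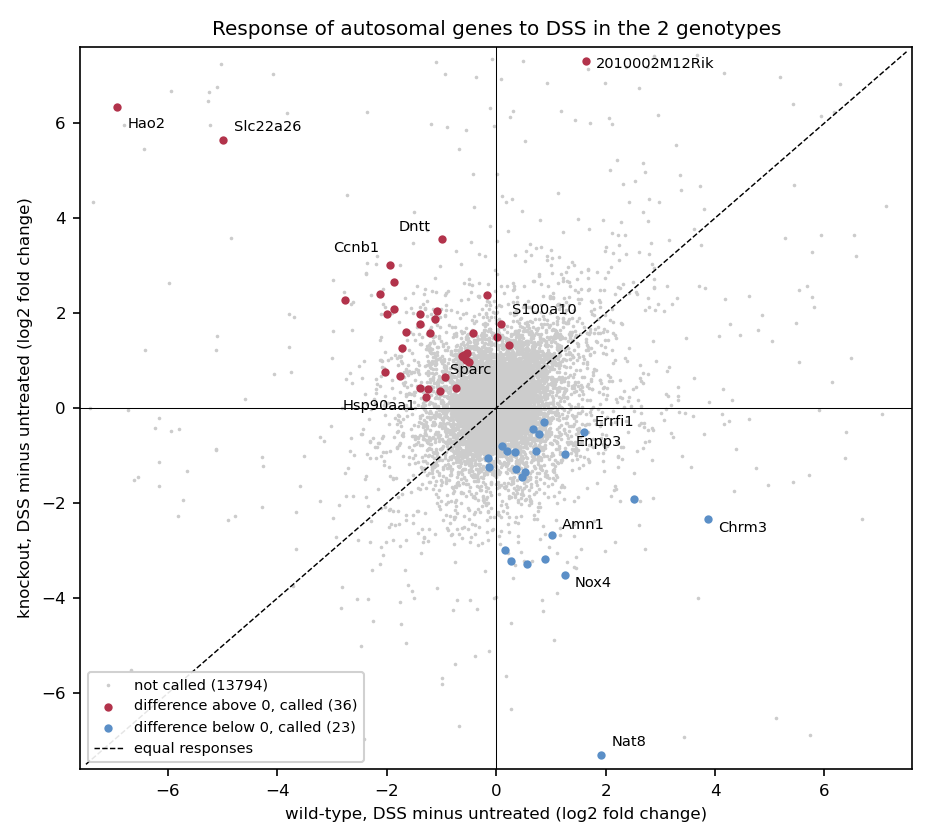
Each point is an autosomal gene, with the fitted log2 fold change after DSS in wild-type mice on the horizontal axis and in RelaΔhepStat3Δhep mice (KO) on the vertical axis. The dashed line marks equal responses; the 36 genes with a positive and the 23 with a negative difference are coloured, 2 of them (2010002M12Rik and Nat8) are drawn at the edge, and 29 other genes lie outside the axes. Most coloured points lie in the upper left and lower right, where the 2 genotypes moved in opposite directions.

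To see which group carries each difference, the groups were ranked by library. In 43 of the 59 genes at least 1 group had its 3 libraries all above or all below the other 9, against 13.8% of all genes tested. The 59 genes were picked by a difference of the same libraries, so these shares are a description. The DSS-treated RelaΔhepStat3Δhep group stood apart in 27 genes (5.31% of all tested), 11 times above and 16 times below, and in 15 of them it was the only such group. The untreated RelaΔhepStat3Δhep group stood apart in 15 genes (5% of all tested), in 5 alone, the DSS-treated wild-type group in 9 (2.04%), in 7 alone, and the untreated wild-type group in 4 (2.08%), each time alone. In 16 genes no group stood apart. In 10 genes both RelaΔhepStat3Δhep groups stood apart at opposite ends, so that the 6 wild-type libraries lay between them.

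**Figure D2:**
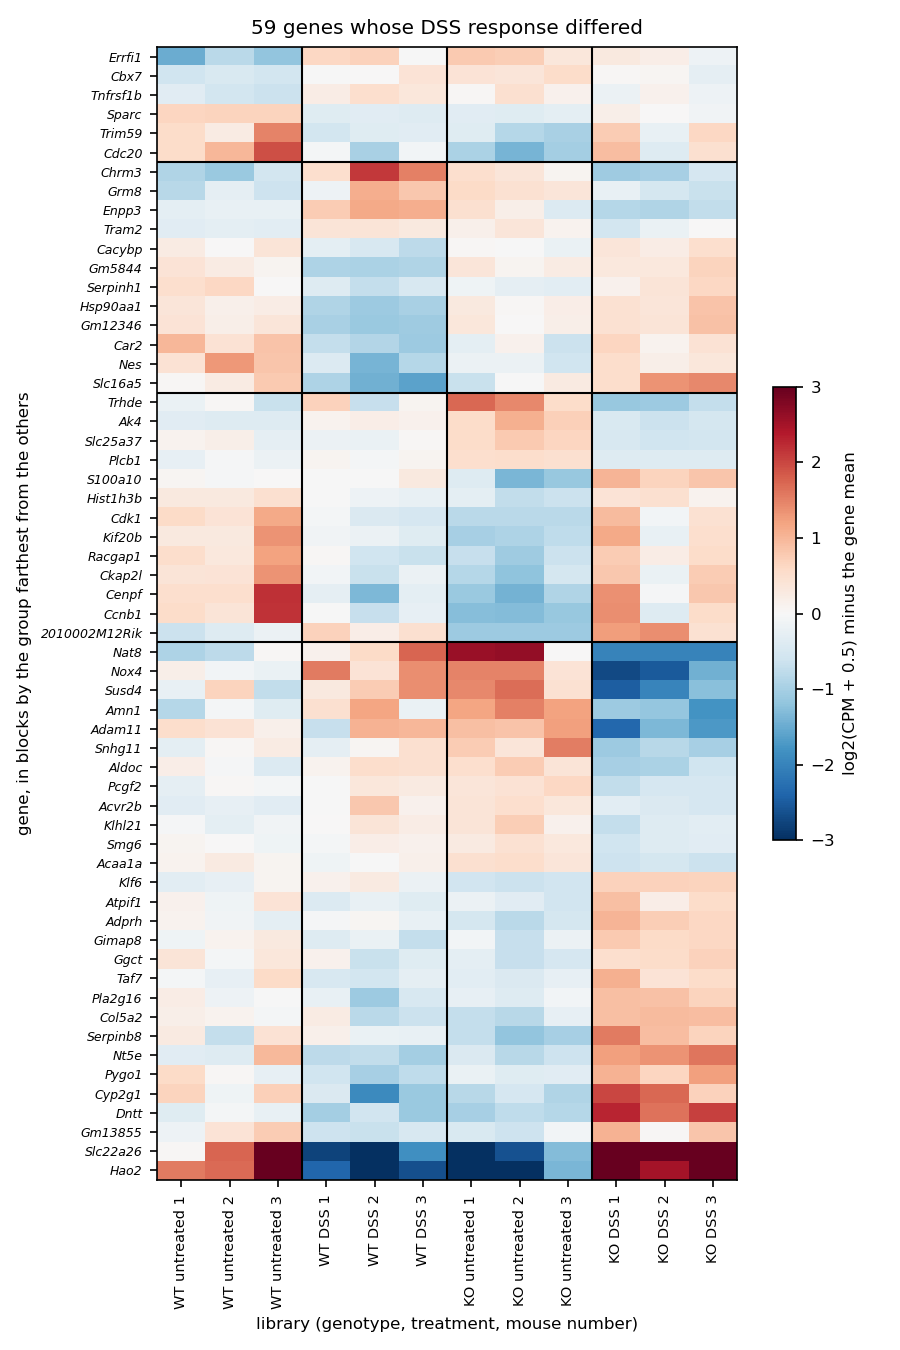
The 59 genes (rows) in the 12 libraries (columns), as log2(CPM + 0.5) minus the mean of the gene; red is above and blue below that mean, and the scale ends at 3 in either direction. Horizontal lines separate the genes by the group whose mean lay farthest from the other groups: 6 genes for untreated and 12 for treated wild-type mice, and 13 for untreated and 28 for treated RelaΔhepStat3Δhep mice.

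Hsp90aa1, Serpinh1 and Cacybp, which take part in protein folding or bind chaperones, were lowest in DSS-treated wild-type mice. Hsp90aa1, the inducible cytosolic form of the Hsp90 chaperone (mm9, chromosome 12, 111928815 to 111940938), was read at 423, 366 and 383 CPM without and 175, 154 and 166 CPM with DSS in wild-type mice, and at 399, 338 and 379 CPM and 452, 419 and 596 CPM in RelaΔhepStat3Δhep mice. All 3 DSS-treated wild-type libraries lay below all 9 others. Its level fell by 1.24 in wild-type mice (log2, SE 0.16, adjusted p = 0.00756) and the response in RelaΔhepStat3Δhep mice was 0.39 (SE 0.16, adjusted p = 0.155), which made a difference of 1.64 (SE 0.23, adjusted p = 0.01). The pseudogenes Gm12346 and Gm5844 gave the same picture, with differences of 1.80 (adjusted p = 0.00378) and 1.50 (adjusted p = 0.0111), but their sequences are 99.5% and 98.5% identical to the Hsp90aa1 transcript over 1433 and 2202 aligned bases, so reads cannot be assigned with certainty among the 3 and they count as 1 observation.

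Serpinh1, the collagen chaperone of the endoplasmic reticulum, was read at 23.9, 26.1 and 17 CPM in untreated and 12.7, 10.1 and 12 CPM in DSS-treated wild-type mice, against 15.3, 13.9 and 13.4 CPM and 18.4, 22.3 and 26.3 CPM in RelaΔhepStat3Δhep mice. It fell in wild-type mice (-0.94, adjusted p = 0.0302) and rose in RelaΔhepStat3Δhep mice (0.65, adjusted p = 0.0452), with a difference of 1.59 (SE 0.25, adjusted p = 0.0177). Cacybp, which encodes the calcyclin-binding protein, was lowest in the DSS-treated wild-type libraries (27.7, 24.3 and 19.5 CPM, the other 9 from 29.2 to 48.3 CPM), and its difference was 1.16 (SE 0.22, adjusted p = 0.0431). A list of 25 heat shock proteins and chaperones was then written after these values were seen, and is a description only. Of its 21 tested members, 17 had a difference above 0 (51.4% of all genes tested), with a median of 0.74. The threshold was passed upward by 3, Hsp90aa1, Serpinh1 and Cacybp (0.26% of all genes tested). The median response of the list was -0.51 in wild-type mice and 0.13 in RelaΔhepStat3Δhep mice. The co-chaperones Chordc1, Hsph1, Stip1 and Fkbp4 did not pass the threshold for the difference, with values of 0.97, 0.99, 0.95 and 0.80 (adjusted p from 0.0838 to 0.233; Chordc1 passed it under DESeq2, at 0.0132, and in edgeR without the first DSS-treated wild-type library, at 0.0392), and in each of them the 3 DSS-treated wild-type libraries lay below all 9 others. The median of the list was 0.83 without the third untreated wild-type library and 1.11 with the Xist covariate, and Cacybp lost its call without that library (adjusted p = 0.109).

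The untreated wild-type group stood apart for Sparc, Errfi1, Tnfrsf1b and Cbx7. Sparc, a matrix glycoprotein of stellate and endothelial cells (chromosome 11, 55208002 to 55233582), was read at 98, 100.1 and 99.4 CPM in untreated wild-type mice, at 48.6, 49.5 and 47.4 CPM after DSS, at 48.9, 48.7 and 50.5 CPM in untreated RelaΔhepStat3Δhep mice and at 70, 62.8 and 58.2 CPM after DSS. All 3 untreated wild-type libraries lay above the other 9. Sparc fell by 1.03 after DSS in wild-type mice (SE 0.11, adjusted p = 0.00215) to a range that overlapped that of untreated RelaΔhepStat3Δhep mice. The response in RelaΔhepStat3Δhep mice was 0.37 (SE 0.11, adjusted p = 0.0536) and the difference 1.40 (SE 0.15, adjusted p = 0.00248). Errfi1, a feedback inhibitor of the EGF receptor, showed the mirror image. Its untreated wild-type libraries held 271, 438 and 336 CPM, and the other groups held 1169, 1241 and 756 CPM (wild-type, DSS), 1306, 1280.0 and 959 CPM (RelaΔhepStat3Δhep, untreated) and 933, 869.7 and 686 CPM (RelaΔhepStat3Δhep, DSS). It rose by 1.60 in wild-type mice (SE 0.25, adjusted p = 0.013), and RelaΔhepStat3Δhep mice had the higher level already without treatment (genotype difference 1.76, adjusted p = 0.0213). The difference between the responses was -2.11 (SE 0.34, adjusted p = 0.023). Tnfrsf1b, a receptor of tumour necrosis factor, rose in wild-type mice by 0.87 (adjusted p = 0.0196) from 28, 24.5 and 22.8 CPM, with a difference of -1.16 (SE 0.21, adjusted p = 0.0431). Cbx7, a Polycomb protein, was read at 2.63, 2.94 and 2.72 CPM in untreated wild-type mice and from 3.42 to 6.44 CPM elsewhere (difference -1.34, adjusted p = 0.0488). In these 4 genes the untreated mice of the 2 genotypes did not overlap.

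Car2, a cytosolic carbonic anhydrase, was read at 18.4, 12.3 and 16.9 CPM without and 5.31, 4.73 and 4.02 CPM with DSS in wild-type mice, and at 7.32, 9.99 and 5.63 CPM and 14.4, 9.7 and 12.5 CPM in RelaΔhepStat3Δhep mice. It fell in wild-type mice (-1.76, SE 0.23, adjusted p = 0.00775), and the difference was 2.43 (SE 0.33, adjusted p = 0.00776).

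The genes past the threshold in both genotypes with opposite signs were Enpp3, Chrm3, Slc16a5 and Serpinh1. Enpp3, an ectoenzyme that splits extracellular nucleotides, was read at 34.7, 36.5 and 36.1 CPM in untreated wild-type mice, 71.6, 94.4 and 91.2 CPM after DSS, 59.7, 47.6 and 31.5 CPM in untreated RelaΔhepStat3Δhep mice and 23.3, 22.4 and 25 CPM after DSS. The DSS-treated wild-type libraries were the 3 highest and the DSS-treated RelaΔhepStat3Δhep libraries the 3 lowest of the 12. It rose by 1.26 (SE 0.19, adjusted p = 0.0129) in wild-type and fell by 0.97 (SE 0.19, adjusted p = 0.0128) in RelaΔhepStat3Δhep mice. Chrm3, the muscarinic acetylcholine receptor M3, was scarce, at 0.184, 0.0957 and 0.377 CPM and 1.3, 5.11 and 3.17 CPM in wild-type and 1.32, 1.15 and 0.864 CPM and 0.114, 0.144 and 0.396 CPM in RelaΔhepStat3Δhep mice. It rose in wild-type (3.86, adjusted p = 0.0162) and fell in RelaΔhepStat3Δhep mice (-2.35, adjusted p = 0.0368), with a difference of -6.21 (SE 0.87, adjusted p = 0.01). Grm8, a glutamate receptor, was as scarce and leaned the same way (difference -4.43, adjusted p = 0.0431), with neither response past the threshold.

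**Figure D3:**
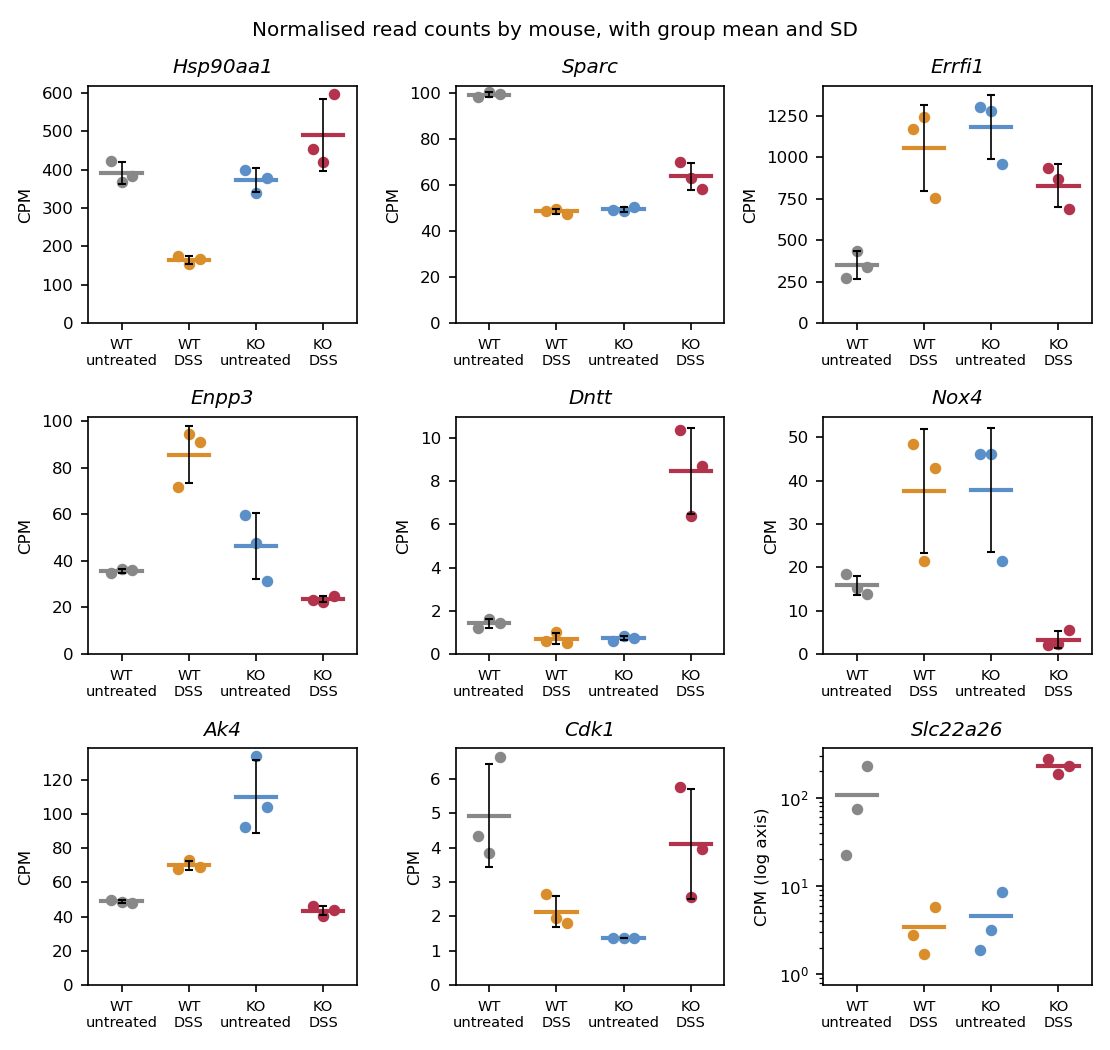
Normalised read counts (CPM) of 9 genes in each of the 12 libraries, in groups of 3 (KO stands for RelaΔhepStat3Δhep), with the group mean as a coloured line and the SD as a black bar. Slc22a26 is on a log axis and has no SD bar. Hsp90aa1 is low in DSS-treated wild-type mice alone, Sparc is high and Errfi1 low in untreated wild-type mice alone, and Dntt is high and Nox4 low in DSS-treated RelaΔhepStat3Δhep mice alone.

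The DSS-treated RelaΔhepStat3Δhep mice stood above all others for Dntt, Nt5e and Col5a2. Dntt encodes terminal deoxynucleotidyl transferase, known from the joining of antigen receptor genes in lymphocyte precursors, and was read at 10.4, 6.39 and 8.7 CPM in these mice against 0.532 to 1.63 CPM in the other 9. It had the smallest p-value of the 59 genes. It rose by 3.55 (SE 0.29, adjusted p = 0.00015) in RelaΔhepStat3Δhep mice, and the difference was 4.55 (SE 0.40, adjusted p = 0.000817). Nt5e, the ectonucleotidase that makes adenosine from AMP, was read at 58, 55.9 and 146 CPM and 42.4, 44 and 36 CPM in wild-type and 54.4, 40.9 and 47.5 CPM and 174, 188 and 225 CPM in RelaΔhepStat3Δhep mice. Its highest value outside the DSS-treated RelaΔhepStat3Δhep mice was that of the third untreated wild-type library. It rose by 2.04 (adjusted p = 0.00493), with a difference of 3.12 (SE 0.44, adjusted p = 0.0104). Col5a2, a chain of the fibrillar collagen V, was read at 18.3, 19.2 and 18.9 CPM after DSS in RelaΔhepStat3Δhep mice against 5.16 to 11.6 CPM elsewhere (difference 2.00, SE 0.37, adjusted p = 0.0431).

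In 4 genes the DSS-treated RelaΔhepStat3Δhep mice were highest and the untreated ones lowest, among them S100a10 and Klf6. S100a10, the partner of annexin A2, went from 41.4, 20.6 and 24.4 CPM to 110.0, 86.4 and 96.8 CPM in RelaΔhepStat3Δhep mice (log2 change 1.76, SE 0.22, adjusted p = 0.00124), while the 6 wild-type libraries ranged from 52.4 to 66.2 CPM. Klf6, a zinc finger transcription factor, went from 16.1, 15.3 and 16.2 CPM to 39.9, 39.7 and 39.2 CPM (1.32, SE 0.14, adjusted p = 0.000666), with wild-type libraries from 19.5 to 29.4 CPM. The wild-type responses were 0.09 (adjusted p = 0.896) and 0.24 (adjusted p = 0.463).

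More genes were lowest in the DSS-treated RelaΔhepStat3Δhep mice. Nox4, an NADPH oxidase that releases hydrogen peroxide, was read at 18.3, 15.2 and 13.9 CPM without and 48.4, 21.5 and 42.9 CPM with DSS in wild-type mice, and at 46.1, 46.1 and 21.4 CPM and 2.03, 2.39 and 5.54 CPM in RelaΔhepStat3Δhep mice. It fell by 3.51 in RelaΔhepStat3Δhep mice (SE 0.47, adjusted p = 0.00351), its wild-type response was 1.25 (adjusted p = 0.207), and the difference was -4.76 (SE 0.63, adjusted p = 0.0117). Amn1 was read at 15.1, 26.6 and 21.7 CPM and 39.3, 64.4 and 24.3 CPM in wild-type and 63.8, 80.2 and 64.7 CPM and 12.8, 12.2 and 7.64 CPM in RelaΔhepStat3Δhep mice. It fell by 2.67 in the latter (adjusted p = 0.00182), with a difference of -3.69 (SE 0.47, adjusted p = 0.00776). Adam11, a member of the ADAM family without protease activity, went from 9.21, 8.88 and 11.7 CPM to 0.528, 1.56 and 1.07 CPM in RelaΔhepStat3Δhep mice, and the 6 wild-type libraries held from 2.71 to 10.2 CPM (difference -3.51, SE 0.64, adjusted p = 0.0431). Trhde, the enzyme that degrades thyrotropin-releasing hormone, and Aldoc, a glycolytic aldolase, were also lowest in this group, with differences of -3.84 (adjusted p = 0.0431) and -1.93 (adjusted p = 0.0102).

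In 6 genes, among them Ak4, Slc25a37, Acaa1a and Plcb1, the untreated RelaΔhepStat3Δhep mice were highest and the DSS-treated ones lowest. Ak4, a mitochondrial adenylate kinase, was read at 49.7, 48.6 and 48.1 CPM and 68, 73 and 69.2 CPM in wild-type and at 92.4, 134 and 104 CPM and 46, 40.6 and 43.9 CPM in RelaΔhepStat3Δhep mice. It fell by 1.34 in RelaΔhepStat3Δhep mice (SE 0.14, adjusted p = 0.000467), and the wild-type response was 0.52 (SE 0.14, adjusted p = 0.0945), so the difference was -1.86 (SE 0.19, adjusted p = 0.00248). Without treatment RelaΔhepStat3Δhep mice were higher by 1.17 (adjusted p = 0.00665). Slc25a37, the mitochondrial iron importer mitoferrin, went from 52.2, 61.8 and 56.1 CPM to 25.2, 23.2 and 24.1 CPM in RelaΔhepStat3Δhep mice against 29.1 to 39.9 CPM in wild-type mice (difference -1.10, SE 0.19, adjusted p = 0.0364). Acaa1a, the peroxisomal thiolase of fatty acid oxidation, went from 146, 151 and 134 CPM to 67.6, 72.2 and 66.8 CPM against 95.5 to 126 CPM in wild-type mice (difference -0.90, SE 0.17, adjusted p = 0.0431). Plcb1, a phospholipase C, showed the same order with little spread, at 40.8, 41.2 and 40 CPM and 21.7, 21.5 and 21.8 CPM against 24 to 30.2 CPM in wild-type mice (difference -1.10, SE 0.15, adjusted p = 0.00776). Of the 25 tested genes of fatty acid oxidation and ketogenesis, Acaa1a alone passed the threshold for the difference (0.166% of all genes tested passed below 0). In 17 the difference lay below 0, as in 6727 of the 13853 genes tested. The median was -0.13, with a range from -0.34, without the second DSS-treated wild-type library, to -0.0057, without the first.

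Genes of cell division leaned down in wild-type mice and up in RelaΔhepStat3Δhep mice. Cdk1, the kinase that starts mitosis, was read at 4.33, 3.84 and 6.64 CPM without and 2.64, 1.94 and 1.82 CPM with DSS in wild-type mice and at 1.37, 1.37 and 1.36 CPM and 5.78, 2.57 and 3.97 CPM in RelaΔhepStat3Δhep mice. The untreated RelaΔhepStat3Δhep libraries were the 3 lowest. Ccnb1, the cyclin B1 that activates Cdk1, was read at 2.38, 2.05 and 8.21 CPM and 1.43, 0.716 and 1.14 CPM, and at 0.306, 0.29 and 0.391 CPM and 4.67, 0.994 and 2.37 CPM. Cdc20, an activator of the anaphase-promoting complex, was read at 3.34, 4.77 and 9.55 CPM and 2.03, 0.844 and 1.98 CPM, and at 0.864, 0.497 and 0.796 CPM and 4.49, 1.53 and 3.16 CPM. In all 3 genes the third untreated wild-type library, the one with mixed sex-linked transcripts, was the highest of the 12. They rose in RelaΔhepStat3Δhep mice by 1.59, 3.02 and 2.09 (adjusted p = 0.0115, 0.0179 and 0.0262), and the wild-type responses of -1.21, -1.94 and -1.86 did not pass the threshold (adjusted p = 0.0868, 0.155 and 0.0938). The differences were 2.79 (SE 0.43, adjusted p = 0.015), 4.96 (SE 0.88, adjusted p = 0.0431) and 3.95 (SE 0.69, adjusted p = 0.0375). Without the third untreated wild-type library they were 2.52, 4.04 and 3.41, with adjusted p of 0.0412, 0.0568 and 0.07.

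Outside the list of cell cycle genes, Cenpf and Racgap1, which act at the kinetochore and in cytokinesis, and Kif20b and Ckap2l, which act on the mitotic spindle, passed the threshold with differences of 4.53, 3.16, 3.00 and 3.37 (adjusted p = 0.0434, 0.0198, 0.0431 and 0.0481). In these genes too the third untreated wild-type library was the highest of the 12, and without it the differences were 3.67, 2.81, 2.51 and 2.91, none past the threshold (adjusted p = 0.0568, 0.0523, 0.0881 and 0.11). Of the 28 tested members of the cell cycle list, 24 had a difference above 0 (51.4% of all genes tested), 19 an unadjusted p under 0.05 above 0 (9.77%), and 3 passed the threshold (0.26%). The median difference of the list was 2.00, from a median response of -0.96 in wild-type and 1.04 in RelaΔhepStat3Δhep mice, and it was 1.65 without the third untreated wild-type library and 0.82 with the Xist covariate. That covariate is estimated from the same library, which was the highest for the genes named here, so it is no separate test of sex. In 13 members the 2 responses had opposite signs at an unadjusted p under 0.05 in each, as in 1.51% of all genes tested, and a large difference by itself picks such genes. By library, the list median relative to the untreated wild-type mean lay from -1.18 to -0.73 log2 units in untreated and from -0.58 to 0.15 in DSS-treated RelaΔhepStat3Δhep mice, and from -1.07 to -0.45 in DSS-treated wild-type mice. The untreated RelaΔhepStat3Δhep and the DSS-treated wild-type mice thus overlapped.

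The promoters of the cell division genes named above were searched, with that of Trim59, whose read counts are not given here. A promoter was taken as the 250 bases before the transcription start in the RefSeq annotation of GRCm38.p6. A CCAAT box (CCAAT on either strand) was present in 7 of 8 such promoters (Ccnb1, Cdk1, Cdc20, Cenpf, Kif20b, Racgap1, Ckap2l and Trim59) and in 33.8% of the 32851 promoters of the annotation. The TTTGAA core of the cell-cycle homology region, known from genes silenced outside division, was present in 4 of 8 against 16% of all, and the palindrome TTCNNNGAA that STAT proteins are known to bind in 1 of 8 against 7.02%. The genes were chosen after their values were seen, and a match of letters is a description and not a binding site. In the following sequences, written 5′ to 3′ on the strand of the gene, capitals mark CCAAT and TTTGAA in either orientation (ATTGG and TTCAAA on the other strand).
Cdk1 (GRCm38.p6, minus strand, chr10:69352913-69353162): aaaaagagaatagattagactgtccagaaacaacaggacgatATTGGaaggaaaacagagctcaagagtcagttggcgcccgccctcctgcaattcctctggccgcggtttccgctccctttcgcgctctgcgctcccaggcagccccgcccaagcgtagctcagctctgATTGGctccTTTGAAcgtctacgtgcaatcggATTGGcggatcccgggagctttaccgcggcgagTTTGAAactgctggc
Ccnb1 (GRCm38.p6, minus strand, chr13:100786487-100786736): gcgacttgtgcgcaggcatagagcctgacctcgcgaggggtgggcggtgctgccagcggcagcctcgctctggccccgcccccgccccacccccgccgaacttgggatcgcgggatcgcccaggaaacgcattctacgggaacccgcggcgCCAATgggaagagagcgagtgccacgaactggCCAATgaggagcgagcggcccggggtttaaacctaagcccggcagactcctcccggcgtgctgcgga
Cdc20 (GRCm38.p6, minus strand, chr4:118437344-118437593): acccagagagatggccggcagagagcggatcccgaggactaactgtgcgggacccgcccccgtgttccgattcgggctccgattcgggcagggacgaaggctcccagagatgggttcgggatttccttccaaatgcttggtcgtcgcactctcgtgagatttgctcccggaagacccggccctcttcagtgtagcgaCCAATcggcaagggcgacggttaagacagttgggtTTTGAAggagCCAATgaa
The Ccnb1 promoter holds 2 CCAAT boxes and no TTTGAA, that of Cdk1 holds 3 CCAAT boxes and 2 TTTGAA, and that of Cdc20 holds 2 CCAAT boxes and 1 TTTGAA. None of the 3 holds the STAT palindrome.

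Among the largest differences were those of genes known to differ between the sexes in the mouse liver. Hao2, a peroxisomal hydroxyacid oxidase that is higher in females, was read at 19.8, 21.6 and 137 CPM without and 0.824, 0 and 0.606 CPM with DSS in wild-type mice, and at 0.146, 0.0966 and 2.15 CPM and 84.8, 37.9 and 71.4 CPM in RelaΔhepStat3Δhep mice. Slc22a26, an organic anion transporter that is also higher in females, was read at 22.6, 74.8 and 227 CPM and 2.78, 1.67 and 5.75 CPM in wild-type and at 1.9, 3.19 and 8.64 CPM and 277, 184 and 227 CPM in RelaΔhepStat3Δhep mice. For both genes the third library was the highest of the untreated wild-type group. The differences were 13.27 (SE 2.10, adjusted p = 0.0431) and 10.64 (SE 1.36, adjusted p = 0.015), and without the third untreated wild-type library 11.76 (adjusted p = 0.0697) and 9.49 (adjusted p = 0.0157). Slc22a26 belongs to a family of close paralogues, among which the counting could split reads. Slc16a5, a monocarboxylate transporter, was read at 27.3, 31.5 and 46 CPM and 13.8, 9.58 and 8.47 CPM in wild-type and at 16.6, 26.5 and 32 CPM and 38.8, 69.1 and 73.2 CPM in RelaΔhepStat3Δhep mice. It fell in wild-type (-1.72, adjusted p = 0.0279) and rose in RelaΔhepStat3Δhep mice (1.27, adjusted p = 0.0301).

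The promoter of Slc22a26 is shown because it holds 1 match to the STAT palindrome, marked in capitals, which 7.02% of all promoters hold. It also holds 1 CCAAT box, not marked here, as do 33.8% of all promoters, and no TTTGAA. The promoter of Hao2, searched in the same way, holds none of the 3 motifs.
Slc22a26 (GRCm38.p6, minus strand, chr19:7802668-7802917): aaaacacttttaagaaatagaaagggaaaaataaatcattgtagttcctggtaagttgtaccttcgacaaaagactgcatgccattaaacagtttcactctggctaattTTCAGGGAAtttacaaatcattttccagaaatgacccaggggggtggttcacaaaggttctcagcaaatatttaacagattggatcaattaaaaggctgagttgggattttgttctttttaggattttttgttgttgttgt

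Among male-biased genes, Nat8, an N-acetyltransferase of cysteine conjugates, was read at 0.552, 0.67 and 1.55 CPM without and 1.7, 2.5 and 6.27 CPM with DSS in wild-type mice and at 11.6, 11.9 and 1.54 CPM in untreated RelaΔhepStat3Δhep mice, and no read was counted in the 3 DSS-treated ones. Against a floor of 3 counts per library, Nat8 was at least 207-fold lower after DSS in RelaΔhepStat3Δhep mice (adjusted p of the difference = 0.0353). Nat8 has close paralogues, so reads could be split among them. Susd4, a complement regulator, was read at 22.4, 41.8 and 15.6 CPM and 32.1, 45.1 and 70.5 CPM in wild-type and at 72.4, 84.6 and 36.1 CPM and 4.35, 6.25 and 10.7 CPM in RelaΔhepStat3Δhep mice (difference -4.07, SE 0.69, adjusted p = 0.0431). Of the 24 tested female-biased genes, 23 had a difference above 0 (median 2.08) and 3 passed the threshold (0.26% of all genes tested), and of the 22 tested male-biased genes, 21 had a difference below 0 (median -2.49) and 2 passed it (0.166%). Without the third untreated wild-type library the medians were 1.63 and -2.21, and with the Xist covariate 0.55 and -0.66. The female-biased median was 0.63 to 1.25 log2 units above the untreated wild-type mean in the 3 DSS-treated RelaΔhepStat3Δhep libraries, 0.83 above it in the third untreated wild-type library and below it in the other 8. The male-biased median was at most -0.54 in the libraries with high Xist (over 100 CPM) and from -0.12 to 0.71 in the other 8. Both lists thus set the high-Xist libraries apart. Within those 8 the female-biased median also moved. It was -0.48 and -0.35 in untreated wild-type libraries 1 and 2 and -0.69, -1.44 and -1.08 in the DSS-treated wild-type libraries. In untreated RelaΔhepStat3Δhep libraries it lay from -0.82 to -0.30. The part of sex in these lists cannot be told apart from that of genotype and DSS.

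2010002M12Rik, Cyp2g1 and Pygo1 were named by the size of their difference. 2010002M12Rik was not counted in any untreated RelaΔhepStat3Δhep library and was read at 2.05, 2.31 and 0.961 CPM after DSS, at least 43.7-fold higher against a floor of 3 counts per library. In wild-type mice it was read at 0.184, 0.314 and 0.437 CPM without and 1.22, 0.716 and 0.976 CPM with DSS. Cyp2g1, a cytochrome P450 known from the olfactory mucosa, was read at 1.32, 1.77 and 1.23 CPM and 12.4, 10.2 and 4.66 CPM in RelaΔhepStat3Δhep mice and from 0.35 to 4.81 CPM in wild-type mice (difference 4.53, SE 0.73, adjusted p = 0.027). Pygo1, a coactivator of Wnt signalling, was lowest in DSS-treated wild-type mice (0.307, 0.111 and 0.222 CPM) and highest in DSS-treated RelaΔhepStat3Δhep mice (2, 1.4 and 2.37 CPM), with a difference of 3.97 (SE 0.61, adjusted p = 0.015).

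The acute phase list held no gene past the edgeR threshold for the difference, although its medians were far apart. Of its 24 tested genes, 21 had a difference below 0, 12 of them at an unadjusted p under 0.05 (6.8% of all genes tested), and the median difference was -1.88. The median response was 2.31 in wild-type mice, where 21 genes had an unadjusted p under 0.05 upward (9.03% of all genes tested). None passed the adjusted threshold there (0.534% of all genes tested did, upward). In RelaΔhepStat3Δhep mice the median response was 0.44, and 1 of 24 passed it upward, near the 5.29% of all genes tested. By library, the list median lay 0.27, 3.48 and 1.62 log2 units above the untreated wild-type mean in DSS-treated wild-type mice 1, 2 and 3 and 0.15 to 0.36 above it in the DSS-treated RelaΔhepStat3Δhep mice. The first DSS-treated wild-type mouse thus lay within the range of the RelaΔhepStat3Δhep mice, and without it the median difference was -2.29. Without the second, whose summed acute phase counts were the highest at 250024 CPM, the median difference was -0.60, and limma-voom with quality weights gave -0.75, so the size of the difference rests on that library. Lrg1, a secreted acute phase glycoprotein, was read at 115, 205 and 80.6 CPM and 123, 2354 and 1168 CPM in wild-type and 149, 121 and 90.8 CPM and 53.2, 89.3 and 108 CPM in RelaΔhepStat3Δhep mice. Fga, the fibrinogen α chain, was read at 3687, 4787 and 3726 CPM and 6554, 24597 and 14311 CPM, and at 4303, 3073 and 3723 CPM and 3027, 3514 and 5194 CPM. The differences were -3.71 (SE 1.13, adjusted p = 0.176) and -1.82 (SE 0.55, adjusted p = 0.154). Il1r1, the signalling receptor of interleukin-1, was lowest in the DSS-treated RelaΔhepStat3Δhep libraries (difference -3.31, adjusted p = 0.146). Lrg1, Fga and Il1r1 passed the threshold without the first DSS-treated wild-type library (adjusted p = 0.0114, 0.0303 and 0.0122) and under DESeq2 (adjusted p = 0.0299, 0.0118 and 0.00922).

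**Figure D4:**
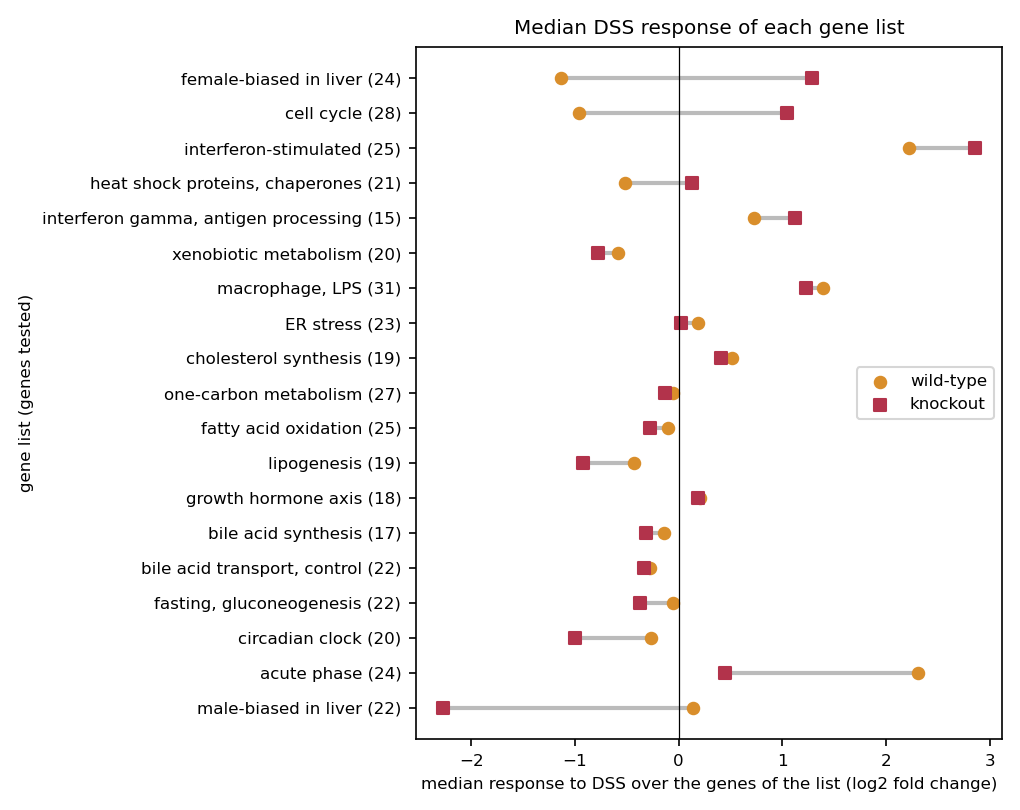
Median log2 response to DSS over the tested genes of each list (number in brackets) in wild-type (circles) and RelaΔhepStat3Δhep mice (KO, squares), with the lists ordered by their median difference. The squares lie on the other side of 0 from the circles for the female-biased (1.28 against -1.13), cell cycle (1.04 against -0.96), chaperone (0.13 against -0.51) and male-biased (-2.28 against 0.14) lists, and the acute phase list is far from 0 in wild-type mice alone.

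Interferon-stimulated genes had responses above 0 in both genotypes. Of 25 tested, all 25 passed the threshold upward in RelaΔhepStat3Δhep mice (5.29% of all genes tested) and 10 in wild-type mice (0.534%), with median responses of 2.86 and 2.22, and none passed the edgeR threshold for the difference. The differences lay above 0 in 22 genes, with a median of 0.96, of 0.70 without the third untreated wild-type library, of 0.56 without the second DSS-treated RelaΔhepStat3Δhep library and of 0.55 with the Xist covariate. Isg15, a ubiquitin-like protein induced by interferon, was read at 8.87, 18.6 and 22.6 CPM and 149.7, 44.6 and 128 CPM in wild-type and at 5.45, 4.37 and 6.11 CPM and 148, 311 and 114 CPM in RelaΔhepStat3Δhep mice, a difference of 2.48 (SE 0.72, adjusted p = 0.16). Usp18, which removes Isg15 from proteins, had a difference of 1.26 (SE 0.34, adjusted p = 0.12). In both genes the untreated RelaΔhepStat3Δhep libraries were the 3 lowest of the 12. Cxcl9, a chemokine induced by interferon gamma, was read at 15.2, 13.8 and 17.4 CPM and 26.9, 5.54 and 13.2 CPM in wild-type and at 15.8, 19.9 and 18.3 CPM and 103, 132 and 63.7 CPM in RelaΔhepStat3Δhep mice, where it rose (2.47, adjusted p = 0.0146), while the wild-type response was -0.02 (adjusted p = 0.99) and the difference 2.50 (adjusted p = 0.119). Under DESeq2 the differences of Isg15, Usp18 and Cxcl9 passed the threshold (adjusted p = 0.00563, 0.028 and 0.00199), and that of Cxcl9 did so in edgeR without the first DSS-treated wild-type library (adjusted p = 0.0157). The list of macrophage and LPS genes (31 tested) had a median difference of 0.13, with 17 above and 14 below 0 and none past the threshold. That median was -0.17 without the third untreated wild-type library and -0.13 with the Xist covariate, and reached 0.43 at its highest under the alternatives.

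Clock genes leaned downward in RelaΔhepStat3Δhep mice. Of 20 tested, 8 fell there (2.72% of all genes tested) and none passed the threshold in wild-type mice or for the difference, whose median was -0.84 with 16 below 0. That median was -0.40 without the second DSS-treated wild-type library, -0.38 under limma-voom and -1.08 at its farthest from 0. Tef, an output factor of the clock, was read at 142, 93.6 and 84 CPM and 39.3, 109.7 and 38.4 CPM in wild-type and at 81.5, 171 and 122 CPM and 14.9, 15.4 and 21.3 CPM in RelaΔhepStat3Δhep mice. It fell by 2.86 in the latter (SE 0.44, adjusted p = 0.00623), with a difference of -2.09 (SE 0.59, adjusted p = 0.146). Hlf, a related factor, had a difference of -1.09 (adjusted p = 0.114). Under DESeq2 both differences passed the threshold (adjusted p = 0.00563 for Tef and 0.0164 for Hlf). The hour at which the livers were taken is not given in the sources used here.

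Among the genes of bile acid synthesis, none of the 17 tested genes passed the edgeR threshold for the difference (median -0.29, 11 below 0). That median was -0.13 without the first or the third DSS-treated wild-type library or the second untreated RelaΔhepStat3Δhep library and -0.48 without the second DSS-treated wild-type library. Cyp7b1, the oxysterol hydroxylase of the alternative pathway, was read at 102, 154 and 63.9 CPM and 110.2, 129 and 311 CPM in wild-type and at 317, 303 and 176 CPM and 62, 58.3 and 123 CPM in RelaΔhepStat3Δhep mice. Its difference was -2.49 (SE 0.66, unadjusted p = 0.00329, adjusted p = 0.126), and Cyp7b1 is also a member of the male-biased list. It was -1.22 with the Xist covariate and -2.51, past the threshold, under DESeq2 (adjusted p = 0.00177). Cyp7a1, the rate-limiting enzyme of the classical pathway, had a difference of -0.51 (SE 1.58, adjusted p = 0.904), with 28.5, 4.78 and 81.5 CPM in DSS-treated wild-type and 25.9, 74.9 and 8.08 CPM in DSS-treated RelaΔhepStat3Δhep mice, which overlap. Cyp8b1, Cyp27a1, Cyp39a1 and Cyp46a1 had differences of -0.57, -0.81, 0.90 and -0.09, with adjusted p of 0.834, 0.377, 0.397 and 0.979. In the bile acid transport and control list (22 tested) the median was -0.31 and none passed the threshold. Herpud1, a member of the endoplasmic reticulum stress list, had a difference of -2.25 (SE 0.47, adjusted p = 0.0624 in edgeR and 0.000149 under DESeq2, and past the threshold in edgeR without the first untreated RelaΔhepStat3Δhep library), at 272, 757 and 560.1 CPM before and 126, 137 and 191 CPM after DSS in RelaΔhepStat3Δhep mice. The remaining lists of lipid, cholesterol, one-carbon, glucose and xenobiotic metabolism, endoplasmic reticulum stress and interferon gamma response had medians of the difference from -0.33 to 0.44 with no gene past the edgeR threshold. The growth hormone list (18 tested, median -0.27) had 1, Errfi1, and 0.166% of all genes tested passed below 0. The interferon gamma median of 0.44 ranged from 0.02, without the first untreated wild-type library, to 1.11, without the first DSS-treated one, and the xenobiotic median of 0.19 from -0.28, without the second DSS-treated wild-type library, to 0.60, without the first. With the Xist covariate the median was 0.19 against -0.25 for lipogenesis, 0.60 against 0.00 for cholesterol synthesis and -0.08 against -0.31 for bile acid transport and control. The lowest medians of these lists under the alternatives were -0.49, -0.18 and -0.40.

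**Figure D5:**
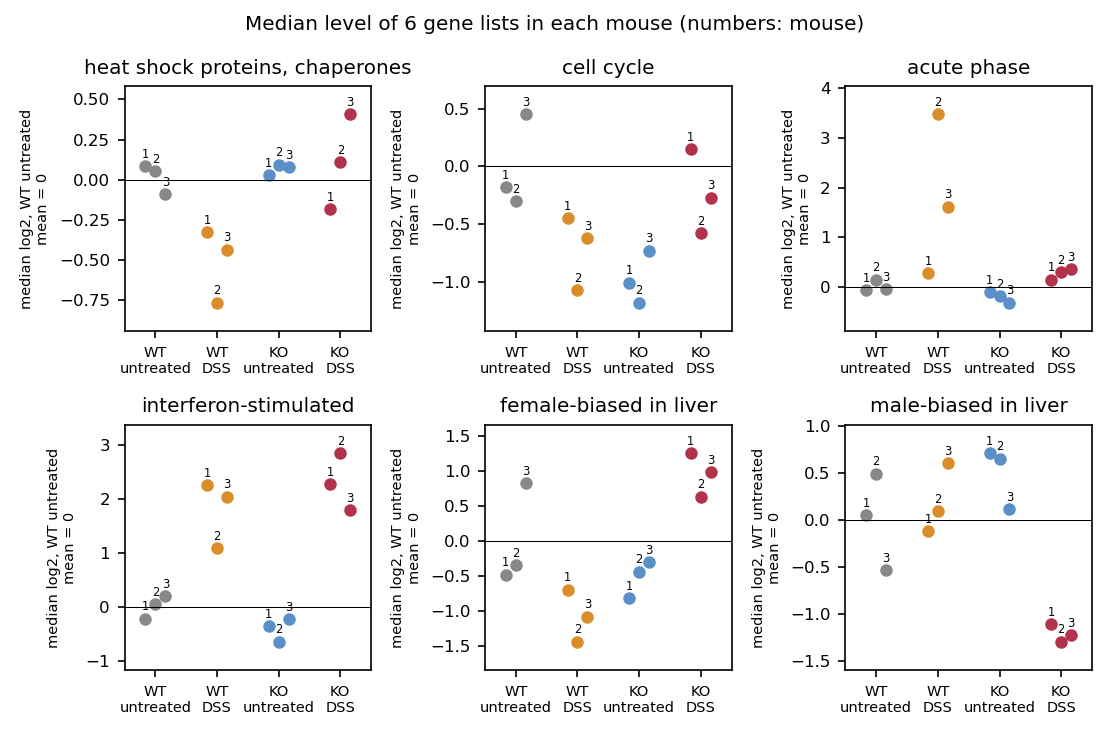
Median log2 level of 6 gene lists in each of the 12 libraries (numbers give the library, KO stands for RelaΔhepStat3Δhep), with the untreated wild-type mean set to 0. DSS-treated wild-type libraries are lowest for chaperones, and libraries 2 and 3 of that group are highest for acute phase genes. The third untreated wild-type library lies with the DSS-treated RelaΔhepStat3Δhep libraries for female-biased genes.

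Markers of the cell types in the liver were read beside these results. Hepatocyte markers (10 tested) had a median difference of -0.24, which ranged from -0.42 to 0.08 under the alternatives, the highest with the Xist covariate. All hepatocyte markers together took from 115598 to 198149 CPM, so the defining markers of the labelled tissue were present. Kupffer cell markers (10 tested) lay above 0 in all 10 with a median of 0.48, and 9 rose in RelaΔhepStat3Δhep mice (5.29% of all genes tested), with none past the threshold for the difference. The Kupffer median ranged from 0.22, without the first untreated wild-type library, to 0.72, with the Xist covariate. T and NK cell markers lay above 0 in 13 of 13 (median 1.81) and B and plasma cell markers in 7 of 8 (median 2.18), again with none past the threshold. At an unadjusted p under 0.05 above 0 there were 8 and 7 (9.77% of all genes tested). Their median responses to DSS were -0.72 and -0.95 in wild-type and 0.75 and 1.20 in RelaΔhepStat3Δhep mice. The median difference of the T and NK cell markers ranged from 1.23, without the first untreated wild-type library, to 2.73, with the Xist covariate. That of the B and plasma cell markers ranged from 1.33, without the first DSS-treated RelaΔhepStat3Δhep library, to 2.60, with the Xist covariate. Endothelial markers lay above 0 in 9 of 10 (median 0.62, from 0.43 to 0.82 under the alternatives), with median responses of -0.34 in wild-type and 0.17 in RelaΔhepStat3Δhep mice. The summed T and NK cell markers were 14 to 25.8 CPM in the DSS-treated RelaΔhepStat3Δhep libraries, 3.49 to 11.7 CPM in the DSS-treated wild-type, 8.13 to 10.6 CPM in the untreated RelaΔhepStat3Δhep and 7.84 to 19.3 CPM in the untreated wild-type libraries. Stellate cell and fibroblast markers (12 tested) had a median of 1.04 (1.56 with the Xist covariate), with Sparc past the threshold (0.26% of all genes tested passed above 0). Their median response was -0.41 in wild-type and 0.55 in RelaΔhepStat3Δhep mice. The summed neutrophil markers reached 127 CPM in the second DSS-treated wild-type library, against 10.4 and 5.22 CPM in the first and the third and 12.6 to 32.3 CPM in the DSS-treated RelaΔhepStat3Δhep libraries. Their median difference was 0.91 (8 of 10 above 0, from 0.33, without the first DSS-treated RelaΔhepStat3Δhep library, to 4.56, without the second DSS-treated wild-type library), and that of the monocyte markers was 0.90 (5 of 6 above 0, 0.58 without the first DSS-treated RelaΔhepStat3Δhep library), with none past the threshold in either list. The part of these cells in the differences given above was not tested.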

How the data were processed

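Liver RNA was sequenced in 12 libraries. Per the labels and the study's methods, the authors trimmed reads with fastp, aligned them to mm9 with HISAT2 and estimated expected counts per gene with StringTie; the deposited table holds these expected counts without normalization. The deposited values are whole numbers and were used as they are. The annotation version is not given in the sources used here; symbols and locations were taken from GENCODE vM1, and rows without one (10.1 to 18.5% of counts) were tested but not printed. One edgeR 4.0.16 quasi-likelihood model (R 4.3.3) of the 4 groups was fitted to 17652 genes left by filterByExpr, with TMM scaling and Benjamini-Hochberg adjustment over all of them. Fold changes are log2 with standard errors. The p-values set each difference against the spread between libraries within groups of 3, estimated jointly over the 4 groups.

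The members and gene lists were chosen with earlier results of these data known. Genes were named if they had the 8 largest positive or negative differences, the 6 smallest p-values, the 4 smallest among those where each group stood apart, were called members of a list, led a list, or were Rela, Stat3 or a bile acid hydroxylase; Racgap1, Ckap2l, Trim59, Cacybp, Serpinh1, Chordc1, Hsph1, Stip1, Fkbp4, Col5a2, Klf6, S100a10, Plcb1, Slc25a37 and the chaperone list were chosen after their values were seen. Alternatives were DESeq2 1.42.0, limma-voom (limma 3.58.1), other size factors and filters, a replicate block, a sex covariate and each library left out. Tested on simulated data of 17106 genes, the fit of the difference called 1.47% of genes changed 2-fold, 59.1% changed 4-fold and 98.5% changed 8-fold. The simulation gave every gene the same spread and held no outlying or mixed library. It changed only well-counted genes, in the DSS-treated RelaΔhepStat3Δhep libraries alone. The rates therefore do not give the share of real differences found here.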

Additional observations from a re-analysis of the deposited data

Results flagged for a closer look

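The 2 responses differed, by a test of the difference itself (edgeR, adjusted p under 0.05), in 59 autosomal genes. Of those named in the report, the log2 difference was above 0 for Hao2 13.27, Slc22a26 10.64, Ccnb1 4.96, Dntt 4.55, Cenpf 4.53, Cyp2g1 4.53, Pygo1 3.97, Cdc20 3.95, Ckap2l 3.37, Racgap1 3.16, Nt5e 3.12, Kif20b 3.00 and Slc16a5 2.98. It was also above 0, and smaller, for Cdk1 2.79, Car2 2.43, Col5a2 2.00, Gm12346 1.80, S100a10 1.67, Hsp90aa1 1.64, Serpinh1 1.59, Gm5844 1.503, Sparc 1.40, Cacybp 1.16 and Klf6 1.08.

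The log2 difference was below 0 for Chrm3 -6.21, Nox4 -4.76, Grm8 -4.43, Susd4 -4.07, Trhde -3.84, Amn1 -3.69, Adam11 -3.51, Enpp3 -2.23, Errfi1 -2.11, Aldoc -1.93, Ak4 -1.86, Cbx7 -1.34, Tnfrsf1b -1.16, Slc25a37 -1.10, Plcb1 -1.10 and Acaa1a -0.90.

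2010002M12Rik, not counted in the untreated RelaΔhepStat3Δhep libraries, was at least 43.7-fold higher after DSS there, and Nat8, not counted after DSS there, at least 207-fold lower, both against a floor of 3 counts per library.

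Outside the autosomes, which the comparison does not use, 13 rows of the table also passed the test of the difference. Xist stood at 903 CPM in the lowest DSS-treated RelaΔhepStat3Δhep library and at 1143 CPM in the third untreated wild-type library, above the other 8 libraries.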

How the results depend on the processing

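Of the 63 genes named with values, the number that were no longer past the threshold for the difference, with the same direction, was 42 with the sex-linked transcripts as a covariate, 12 under limma-voom, 7 without a filter, 5 under the replicate block, 3 with DESeq2 size factors and between 1 and 28 with 1 library left out. Others came past it: 11 under DESeq2 (Il1r1, Fga, Lrg1, Isg15, Usp18, Cxcl9, Cyp7b1, Herpud1, Hlf, Tef and Chordc1), 5 without the first DSS-treated wild-type library (Il1r1, Fga, Lrg1, Cxcl9 and Chordc1) and 1 without the first untreated RelaΔhepStat3Δhep library (Herpud1). DESeq2 called 604 differences, 2033 responses in RelaΔhepStat3Δhep mice, 765 in wild-type mice and 521 genotype differences after and 290 before DSS, and of its differences 339 were past the threshold in RelaΔhepStat3Δhep mice alone and 214 opposite at an unadjusted p under 0.05. The sex covariate gave 0 differences (933 at an unadjusted p under 0.05 in edgeR), 0 RelaΔhepStat3Δhep responses, 42 wild-type responses and 1 genotype difference after DSS. All 59 kept their direction under it, with standard errors 1.72 times larger in the median. The difference was about as large for Sparc, Ak4, Dntt, Plcb1 (-1.03 against -1.10), Hsp90aa1 and Enpp3, and much smaller for Nt5e, Ccnb1, Cenpf, Kif20b, Klf6 and Slc25a37. These sizes rest on the third untreated wild-type library alone and do not sort the genes by the part of sex. limma-voom gave 196 wild-type responses and 29 genotype differences after and 82 before DSS, and an absolute log2 difference of at least 1 left 615 RelaΔhepStat3Δhep responses. Leaving out 1 library gave 16 to 192 differences, 208 to 1564 RelaΔhepStat3Δhep and 31 to 200 wild-type responses, 9 to 360 genotype differences after DSS and 2 to 31 without treatment, 8 to 110 differences in RelaΔhepStat3Δhep mice alone and 11 to 110 opposite ones. The cause was not tested.

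The replicate numbers did not pair the libraries (r of same-numbered deviations from -0.0886 to 0.168, over 0.1 in 1 of 18 pairs). The replicate block gave 107 differences and 27 genotype differences without treatment; of the former 75 were past the threshold in RelaΔhepStat3Δhep mice alone and 73 opposite. The difference of Cyp46a1, far from the threshold throughout, changed sign to 0.19 under limma-voom, 0.035 under the replicate block, 0.22 with the sex covariate and ranged from -0.68 to 0.38 with 1 library left out. That of Cyp39a1 was -0.16 with the sex covariate, that of Rela ranged from -0.046 to 0.32 and that of Cyp7a1 from -1.60 to 0.69 with 1 library left out.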
